A study of Mus musculus with 8 samples.

Results

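The 36 genes described here are immediate early and heat shock genes, and each of the 36 was measured among the 22180 genes of the array. They are named as known members of these families by a rule that uses no measured value, though the set was drawn up with earlier results of these data known. A gene was read from a probe set that the platform annotation assigns to that symbol alone, and the brightest probe set on average stands for a symbol that has several. Transcript levels came from Affymetrix arrays of myeloid cells sorted as CD45+ CD11b+ Ly6Chi from tumours, and all values are on a log2 scale, on which a difference of 1 is a doubling. All mice were female C57BL/6, 8 weeks old, and carried in the flank a subcutaneous tumour of PDAC cell line 152. That line came from spontaneous tumours of KPC mice, whose alleles are KrasLSL-G12D/+, Trp53LSL-R172H/+ and Pdx1-Cre, the last driving recombination in the pancreatic lineage. After 14 days of growth the tumours of 4 mice received 20 Gy from a small animal irradiator and those of the other 4 mice a sham treatment, and cells were taken 1 day later. The tumour cells of both groups are of a single line, so the comparison speaks for that line only, and the implanted site is not the pancreas.

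Immediate early genes are switched on within minutes of a stimulus without new protein synthesis, mostly through MAP kinases acting on serum response factor and CREB. Many encode transcription factors (AP-1, EGR, KLF and NR4A proteins), and others encode brakes on the same signals, such as the DUSP phosphatases and the mRNA decay factor tristetraprolin. Heat shock genes are driven by heat shock factors and encode chaperones that hold or refold proteins. In monocytes and macrophages both programmes respond to inflammatory signals, and both are also known to respond to the digestion and sorting of a tissue.

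The stretch of 150 bases before the annotated start is shown for 8 of the genes, since both families are known to be controlled through short elements near the start. The sequences and their positions are those of RefSeq on build GRCm38.p6, whose promoter table held 41 entries for 29 of the 36 genes, with several starts for some. The 7 without an entry were Egr1, Egr3, Klf10, Ier2, Myc, Hspa8 and Hsp90aa1. Capitals mark matches on either strand to the CArG box (the serum response factor site) or to TGACG (the core of a CREB site, also part of the full site TGACGTCA) in the first 6 sequences. In the 2 Hspa1 sequences capitals mark GAANNTTC, a pair of facing heat shock factor units. Dusp5, on chr19:53528995-53529144 (plus strand), has 2 adjoining CArG boxes, and Egr2, on chr10:67537719-67537868 (plus strand, 1 of several starts), has 1. Zfp36 lies at chr7:28379229-28379378 (minus strand) and Dusp1, with the full CREB site, at chr17:26508473-26508622 (minus strand). Nr4a3, the gene that varied most between the mice, lies at chr4:48045155-48045304 (plus strand). Klf6, the gene with the smallest p-value of the 36, lies at chr13:5861339-5861488 (plus strand), and its stretch holds neither motif. Hspa1a, at chr17:34972157-34972306, and Hspa1b, at chr17:34959239-34959388 (both minus strand), are shown together because they are near-identical copies: 149 of these 150 bases are the same.
Dusp5: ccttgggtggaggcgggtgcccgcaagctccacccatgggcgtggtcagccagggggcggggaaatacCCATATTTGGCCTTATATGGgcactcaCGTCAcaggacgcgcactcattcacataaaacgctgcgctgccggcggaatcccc
Egr2: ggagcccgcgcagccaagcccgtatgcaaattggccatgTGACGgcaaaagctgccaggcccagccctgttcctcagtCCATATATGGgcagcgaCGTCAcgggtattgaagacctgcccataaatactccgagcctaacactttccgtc
Zfp36: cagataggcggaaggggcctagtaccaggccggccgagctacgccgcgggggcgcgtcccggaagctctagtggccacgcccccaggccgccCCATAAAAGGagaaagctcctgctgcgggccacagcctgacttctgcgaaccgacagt
Dusp1: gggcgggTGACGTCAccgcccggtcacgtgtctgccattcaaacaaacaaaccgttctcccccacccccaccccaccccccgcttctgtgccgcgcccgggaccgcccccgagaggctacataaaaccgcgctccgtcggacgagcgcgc
Nr4a3: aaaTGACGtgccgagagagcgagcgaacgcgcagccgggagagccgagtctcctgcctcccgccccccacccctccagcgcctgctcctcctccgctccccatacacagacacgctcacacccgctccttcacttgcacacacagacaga
Klf6: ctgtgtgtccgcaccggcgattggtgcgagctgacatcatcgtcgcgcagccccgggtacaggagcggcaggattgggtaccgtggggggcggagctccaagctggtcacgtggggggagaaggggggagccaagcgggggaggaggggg
Hspa1a: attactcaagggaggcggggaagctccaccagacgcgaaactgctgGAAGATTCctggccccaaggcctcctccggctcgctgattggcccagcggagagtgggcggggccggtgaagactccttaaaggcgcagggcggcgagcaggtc
Hspa1b: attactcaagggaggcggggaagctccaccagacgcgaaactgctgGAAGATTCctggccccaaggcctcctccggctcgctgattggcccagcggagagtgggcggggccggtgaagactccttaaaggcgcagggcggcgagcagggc

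Over windows of 300 bases, from 250 before to 50 after each start, CArG boxes were found in 6 of the 41 entries of these genes (14.6%), belonging to Dusp5, Zfp36 and 4 overlapping or neighbouring starts of Egr2. The share over all 32851 entries of the table was 1.63%. TGACG stood in 23 of the 41 entries (56.1%), belonging to 16 genes, against 20.8% of all entries. GCGNGGGCG, the site of EGR proteins, stood in 11 (26.8%), belonging to 11 genes, against 5.55%. Several entries can be starts of the same gene, so entries are not separate readings. GAANNTTC stood in 6 of the 41 (14.6%), belonging to Hspa1a, Hspa1b, Hsph1, Jun and Fosl2, against 7.86% of all entries. The AP-1 site TGANTCA was in 1 (2.44%), an entry of Csrnp1, against 7.81%. Both strands were searched, and the full CREB site TGACGTCA, counted within TGACG too, stood in 2 entries (4.88%), of Dusp1 and Maff, against 1.79%. A match is a description of the letters and does not show that a factor binds there.

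None of the 36 genes differed between irradiated and sham mice after adjustment over all genes (limma with Benjamini-Hochberg adjustment), and over all 22180 genes the share that did was also 0%. At an unadjusted p under 0.05 there was 1 gene of the 36, Klf6, which was higher in irradiated mice. Of all genes 6.07% were under that p in either direction and 2.05% as higher, so 1 of 36 is near the share over the array as a whole. The sham and irradiated mice overlapped in each of the 36 genes, while 3.68% of all genes had groups without overlap. By sign alone, 27 of the 36 genes were higher on average in irradiated mice, against 42.2% of all genes, with a median difference of 0.09 against -0.03 over all genes. This count is not stable: it was 34 without irradiated mouse 1, 18 without sham mouse 3, and 9 when the sham mice 2 and 3 were both left out. The direction of these shifts follows from which mice were low. Irradiated mouse 1 was lowest in its group in 29 of the 36 genes. Sham mouse 3 was lowest in 21 and sham mouse 2 in 11.

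The differences were small beside the spread between mice. Group means are given ± SD over n = 4 mice each, and differences, irradiated minus sham, ± the SE of the limma fit. The labels number the mice singly, and adjusted p-values are from limma with Benjamini-Hochberg adjustment over all genes. In 32 of the 36 genes the difference between the groups was less than the standard deviation among mice of the same group, as it was for 76.2% of all genes. The median of that within-group standard deviation was 0.27 for the 36 genes and 0.19 for all genes. The 95% interval of the difference lay within 1 on the log2 scale, a doubling or halving, for 33 of the 36 genes; the exceptions were Egr1, Nr4a3 and Gadd45b. It lay within 0.5 for 16 of them, or 44.4%, against 69.2% of all genes. The interval included 0 for each of the 36 genes except Klf6.

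**Figure D1:**
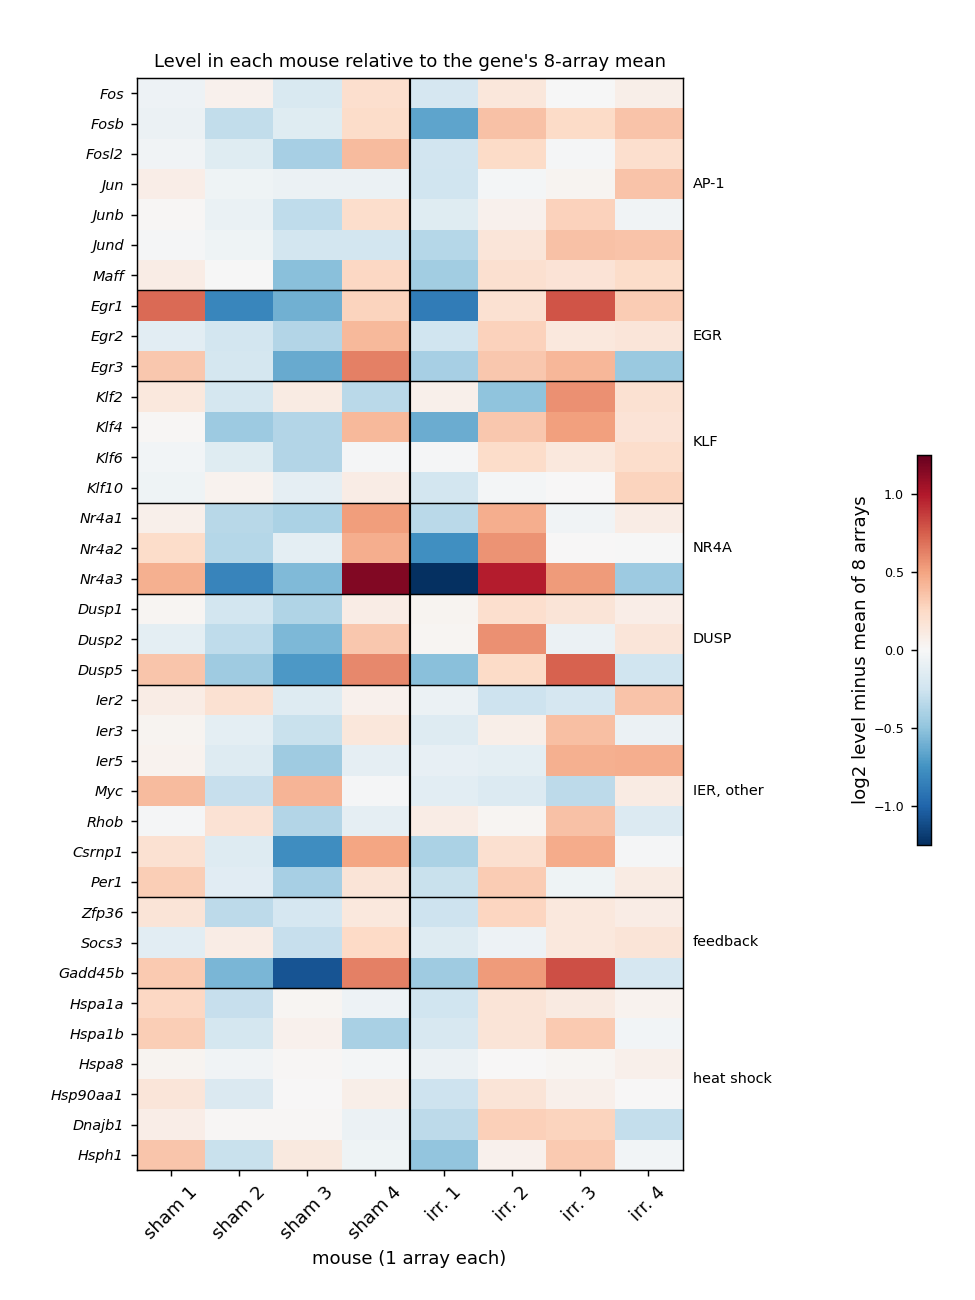
Each row is 1 of the 36 genes and each column 1 mouse; the colour gives the log2 level minus the gene's mean over the 8 arrays, and lines separate the families and the 2 groups. Irradiated mouse 1 is blue in most rows, and the strongest colours are those of Nr4a3, from 7.82 in irradiated mouse 1 to 10.27 in sham mouse 4.

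AP-1 is a dimer of FOS and JUN proteins. Jund, a constitutively made JUN family member, had the smallest p of the 7 AP-1 genes. Its level was 9.59, 9.56, 9.38 and 9.38 (sham mice 1 to 4) against 9.26, 9.76, 9.98 and 9.96 (irradiated mice 1 to 4). The last 3 irradiated mice lay above each sham mouse and irradiated mouse 1 lay below them all. The difference was 0.26 ± 0.16 (SE), or 0.42 without irradiated mouse 1, and did not pass (exact permutation p = 0.171, limma adjusted p = 0.841). A dimmer second probe set of Jund gave 0.23 but ordered the irradiated mice differently, with mouse 2 lowest at 7.51 and mouse 1 at 7.90. Fos, the founding immediate early gene, averaged 9.78 ± 0.17 (sham) and 9.78 ± 0.15 (irradiated), with a 95% interval of the difference from -0.27 to 0.27. Its sign turned positive with quantile normalization or array medians subtracted.

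The other AP-1 genes had differences from 0.06 to 0.15, all with intervals that include 0. Jun, the partner of FOS, stood at 10.56 ± 0.08 (sham) and 10.61 ± 0.25 (irradiated). Junb, which can oppose JUN, stood at 10.42 ± 0.22 and 10.50 ± 0.19. Fosl2, which encodes FRA2, stood at 9.54 ± 0.34 and 9.65 ± 0.22. These 3 genes thus differed by less than their spread. Fosb, a FOS paralogue, stood at 8.79 ± 0.23 and 8.94 ± 0.49, and Maff, a small MAF protein without an activation domain, at 6.81 ± 0.34 and 6.90 ± 0.32. In Fosb and Maff irradiated mouse 1 stood apart from the other irradiated mice, at 8.21 against 9.10 to 9.23 and at 6.42 against 7.03 to 7.09.

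EGR proteins are zinc finger factors induced by growth factor and cytokine signals. Egr1 had one of the widest ranges, at 9.89, 8.37, 8.58 and 9.46 (sham mice 1 to 4) against 8.31, 9.37, 9.97 and 9.49 (irradiated mice 1 to 4). Each group held its own low and high mice, and the group means of 9.07 ± 0.72 and 9.28 ± 0.70 differed by 0.21 ± 0.40 (SE). Egr3 lay at 6.10, 5.54, 5.14 and 6.39 (sham) against 5.35, 6.10, 6.18 and 5.30 (irradiated). It was low in the sham group in mice 2 and 3 and in the irradiated group in mice 1 and 4, and the difference was -0.06 ± 0.29. Egr2, which had the smallest p of the 3, stood at 9.09, 8.99, 8.85 and 9.62 (sham) against 8.97, 9.51, 9.35 and 9.37 (irradiated). Its highest value was in a sham mouse, and the difference of 0.16 ± 0.18 did not pass (exact permutation p = 0.457, limma adjusted p = 0.903). Leaving out sham mouse 3 gave 0.07, and leaving out sham mouse 4 gave 0.32.

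Among the KLF factors, Klf6, a zinc finger factor linked to inflammatory macrophage activation, gave the 1 unadjusted p under 0.05. Its level was 9.78, 9.66, 9.45 and 9.80 (sham mice 1 to 4) against 9.79, 10.04, 9.95 and 10.03 (irradiated mice 1 to 4). Irradiated mice 2 to 4 lay above each sham mouse, and irradiated mouse 1 lay within the sham range, just under sham mouse 4. The means of 9.67 ± 0.16 and 9.95 ± 0.11 differed by 0.28 ± 0.11 (SE), which is 1.21-fold, with a 95% interval of 0.03 to 0.53. The unadjusted limma p of 0.0328 became 0.819 after adjustment, and the exact permutation p, two-sided, was 0.0571, where 4 against 4 mice cannot go below 0.0286. Without sham mouse 3 the difference was 0.20 (limma adjusted p = 0.795). The unadjusted p of Klf6 was no longer under 0.05 when any 1 of sham mice 2 and 3 and irradiated mice 2, 3 and 4 was left out, or with a marker mean of T and NK cells or of neutrophils as a covariate. Klf4, a macrophage polarization factor, stood at 7.99 ± 0.40 (sham) and 8.19 ± 0.50 (irradiated), and Klf2, which restrains monocyte activation, at 6.90 ± 0.23 and 7.06 ± 0.45. Klf10, a TGF-beta-induced factor, stood at 7.97 ± 0.09 and 7.98 ± 0.21. All 4 differences were above 0, but the intervals of Klf2, Klf4 and Klf10 include 0.

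NR4A proteins are nuclear receptors that work without a known hormone and are induced by inflammatory and antigen receptor signals. Nr4a3 varied most of all 36 genes, at 9.55, 8.29, 8.56 and 10.27 (sham mice 1 to 4) against 7.82, 10.09, 9.65 and 8.66 (irradiated mice 1 to 4). The span of 2.45 from its lowest to its highest mouse far exceeded the difference between the groups, -0.12 ± 0.53 (SE), whose 95% interval of -1.30 to 1.07 excludes little. Nr4a2 followed a similar order, at 9.38, 8.80, 9.04 and 9.61 (sham) against 8.39, 9.72, 9.16 and 9.15 (irradiated), with a difference of -0.10 ± 0.26 (exact permutation p = 0.771, limma adjusted p = 0.961). Nr4a1, which encodes NUR77 and marks the step from Ly6C-high to Ly6C-low monocytes, stood at 10.57 ± 0.43 (sham) and 10.65 ± 0.33 (irradiated). The highest NR4A values of the sham group were in mouse 4 for all 3 genes, and those of the irradiated group in mouse 2.

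DUSP1, DUSP2 and DUSP5 are nuclear phosphatases that switch off MAP kinases. Dusp1, which limits p38 and JNK in macrophages, stood at 11.16, 10.92, 10.77 and 11.24 (sham mice 1 to 4) against 11.18, 11.35, 11.31 and 11.23 (irradiated mice 1 to 4). The irradiated mice lay close together, within the upper part of the sham range or just above it. The difference was 0.25 ± 0.12 (SE) with a 95% interval of -0.02 to 0.52 (exact permutation p = 0.0857, limma adjusted p = 0.822). Dusp5, which acts on ERK, stood at 8.12, 7.33, 7.06 and 8.38 (sham) against 7.25, 8.01, 8.51 and 7.53 (irradiated). Both groups held a low and a high pair of mice, and the difference was 0.10 ± 0.33. Dusp2 stood at 7.14 ± 0.38 (sham) and 7.47 ± 0.29 (irradiated), a difference of 0.33 ± 0.20 (exact permutation p = 0.229).

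**Figure D2:**
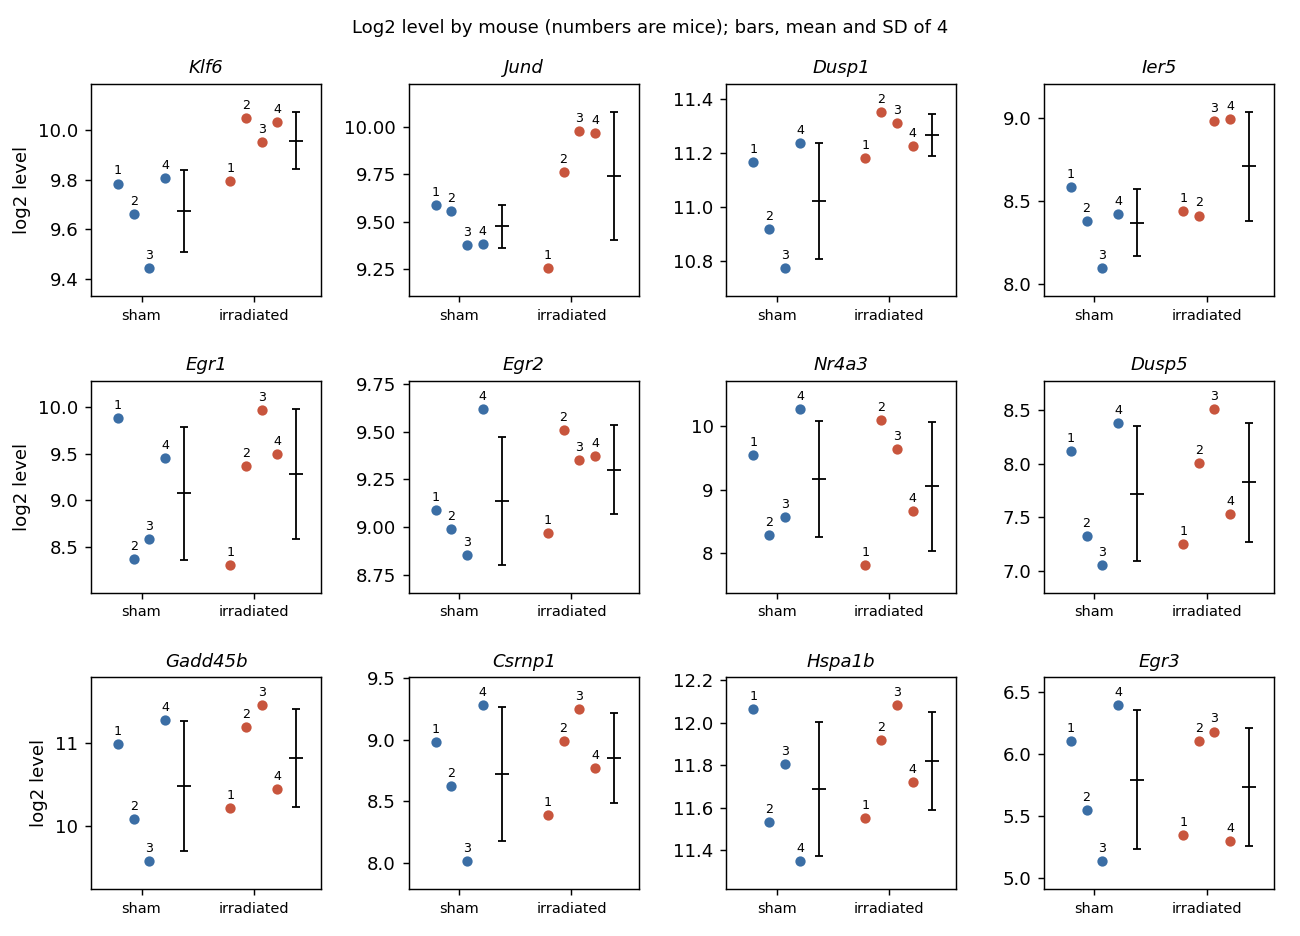
Log2 levels of 12 of the genes whose values are given mouse by mouse, with each point a mouse and its number beside it; the black bars are the mean and SD of 4 mice, and the scales differ between panels. The 2 groups overlap in each panel; in Egr1, Nr4a3, Dusp5 and Gadd45b mouse 1 is the lowest irradiated mouse, at 7.82 for Nr4a3.

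Among the feedback regulators Gadd45b, a stress sensor that binds MAP kinase kinases, varied widely. It stood at 10.98, 10.08, 9.57 and 11.28 (sham mice 1 to 4) against 10.21, 11.19, 11.46 and 10.44 (irradiated mice 1 to 4). The difference of 0.34 ± 0.39 (SE) was the largest of the 36 genes but lay well inside that spread (exact permutation p = 0.457, limma adjusted p = 0.909). Leaving out sham mouse 4 gave 0.61 and leaving out sham mouse 3 gave 0.04. Zfp36, which encodes tristetraprolin and destabilizes cytokine mRNAs, stood at 12.46 ± 0.25 (sham) and 12.58 ± 0.22 (irradiated). Socs3, the inhibitor of IL-6 receptor signalling, stood at 10.47 ± 0.24 and 10.51 ± 0.15. Its second, dimmer probe set gave a similar difference of 0.05 against 0.03.

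Of the remaining immediate early genes, Ier5, a cofactor of the heat shock factor HSF1 that radiation is known to induce, had the smallest p. It stood at 8.58, 8.38, 8.09 and 8.42 (sham mice 1 to 4) against 8.437, 8.412, 8.985 and 8.997 (irradiated mice 1 to 4). Irradiated mice 3 and 4 lay above each sham mouse, while irradiated mice 1 and 2 lay inside the sham range. The difference was 0.34 ± 0.17 (exact permutation p = 0.171, limma adjusted p = 0.822). Csrnp1, a nuclear protein first found as AXIN1-induced, stood at 8.98, 8.62, 8.02 and 9.28 (sham) against 8.39, 8.99, 9.25 and 8.78 (irradiated), a difference of 0.13 ± 0.26. It turned to -0.11 without sham mouse 3 and was 0.31 without sham mouse 4.

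Myc, the growth and ribosome synthesis factor, was the gene with the lowest difference, -0.26 ± 0.17 (exact permutation p = 0.257), with means of 7.69 ± 0.34 (sham) and 7.43 ± 0.18 (irradiated). The groups overlapped, since sham mouse 2 stood at 7.27 and irradiated mouse 4 at 7.66. Ier3, which encodes the survival protein IEX-1, stood at 12.13 ± 0.18 and 12.24 ± 0.24, and Ier2 at 8.69 ± 0.15 and 8.60 ± 0.28. Rhob, a small GTPase inducible by DNA damage, stood at 7.41 ± 0.22 and 7.57 ± 0.22. Per1, a clock gene that CREB and glucocorticoids induce, stood at 8.73 ± 0.32 and 8.77 ± 0.25. The intervals of all 5 genes include 0.

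The heat shock genes did not differ in a common direction: 3 of the 6 were higher and 3 lower in irradiated mice, with a median difference of -0.0050. With quantile normalization 5 of the 6 were higher, with Hsp90aa1 and Dnajb1 turning sign. Hspa1b, an inducible HSP70 gene, stood at 12.07, 11.53, 11.81 and 11.35 (sham mice 1 to 4) against 11.55, 11.92, 12.08 and 11.72 (irradiated mice 1 to 4), a difference of 0.13 ± 0.17 (exact permutation p = 0.514, limma adjusted p = 0.924). Leaving out sham mouse 4 gave 0.02, and leaving out sham mouse 1 gave 0.26. Hspa1a, its near-identical copy, stood at 11.59 ± 0.23 (sham) and 11.62 ± 0.18 (irradiated). Array probes may not separate this pair of copies, and a further probe set that carries both symbols was not used. Hspa8, the constitutive HSC70 gene, varied least of the 36, at 12.76 ± 0.04 and 12.77 ± 0.06, with a 95% interval of the difference from -0.19 to 0.20. Its other probe sets gave differences from 0.01 to 0.07.

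The remaining chaperone genes differed by less than their spread. Hsp90aa1, the inducible HSP90 gene, stood at 9.54 ± 0.14 (sham) and 9.52 ± 0.18 (irradiated). Dnajb1, the HSP40 partner of HSP70, stood at 7.67 ± 0.06 and 7.64 ± 0.35, and Hsph1, an HSP110 exchange factor, at 8.53 ± 0.26 and 8.46 ± 0.34. In Dnajb1 the irradiated mice fell on both sides of the sham mice, with mice 1 and 4 at 7.33 and 7.36 below them and mice 2 and 3 at 7.95 and 7.93 above. For 5 of the 6 heat shock genes the 95% interval lay within 0.5 on the log2 scale; the sixth, Hspa1b, reached 0.51.

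**Figure D3:**
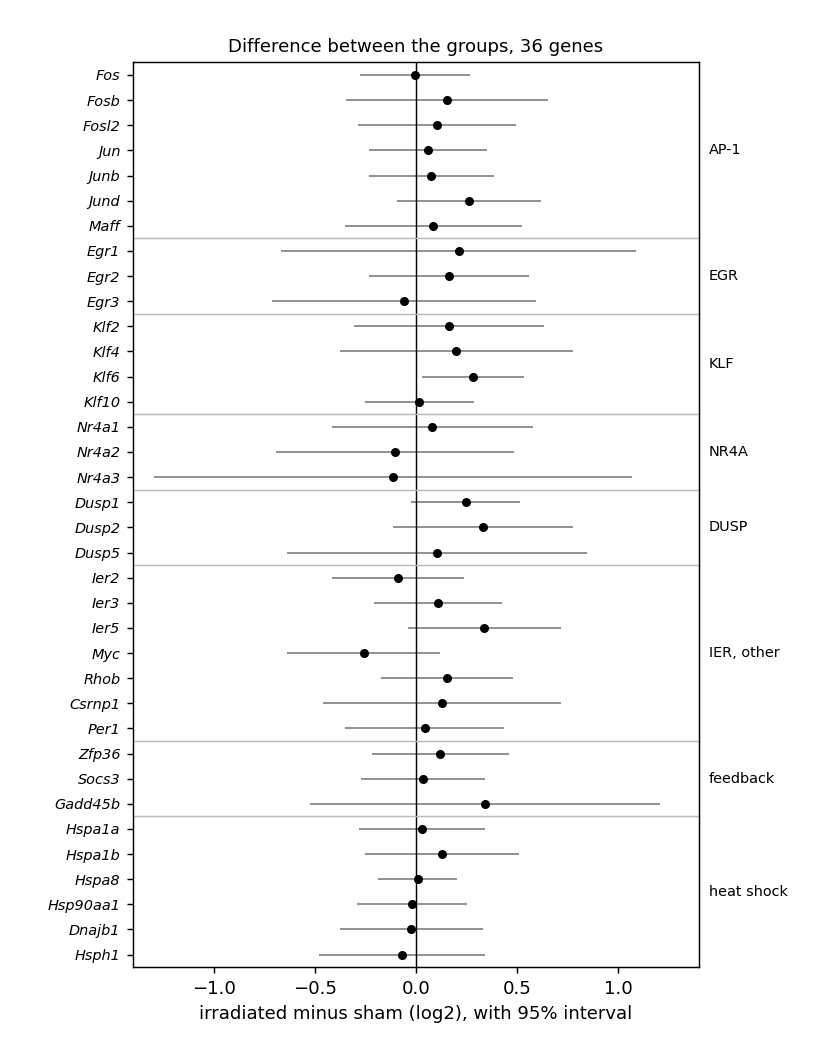
Points are the difference of group means, irradiated minus sham on the log2 scale, for each of the 36 genes, and lines are 95% intervals from the limma fit. Only the interval of Klf6, 0.03 to 0.53, excludes 0, and the widest is that of Nr4a3.

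Many of the genes had the same mouse lowest or highest in its group. Irradiated mouse 1 was the lowest of the 4 irradiated mice in 29 of the 36 genes, or 80.6%, against 25.5% of all genes on the array. Of the 30 genes outside the heat shock family, 21 were lowest within the sham group in mouse 3, against 30.4% of all genes, and 20 were highest in sham mouse 4, against 33.6%. The heat shock genes had another order among the sham mice. With the probe set kept for each gene, all 6 were highest in sham mouse 1, against 20.8% of all genes. None was lowest in sham mouse 3, and 4 were lowest in sham mouse 2. In the irradiated group all 6 were lowest in mouse 1, as most of the other members were. For Hspa8 this order depends on the probe set, and its kept set ran only from 12.72 to 12.80 in sham mice. A dimmer one had sham mouse 2 highest (11.87) and sham mouse 3 lowest (11.76). Its lowest irradiated mouse was mouse 3 (11.83). Hspa1a and Hspa1b are near-identical copies that probes may not separate, so they may not be 2 separate readings. These counts were looked for after the values were seen, genes of a family are not independent of each other, and no test was made of them.

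**Figure D4:**
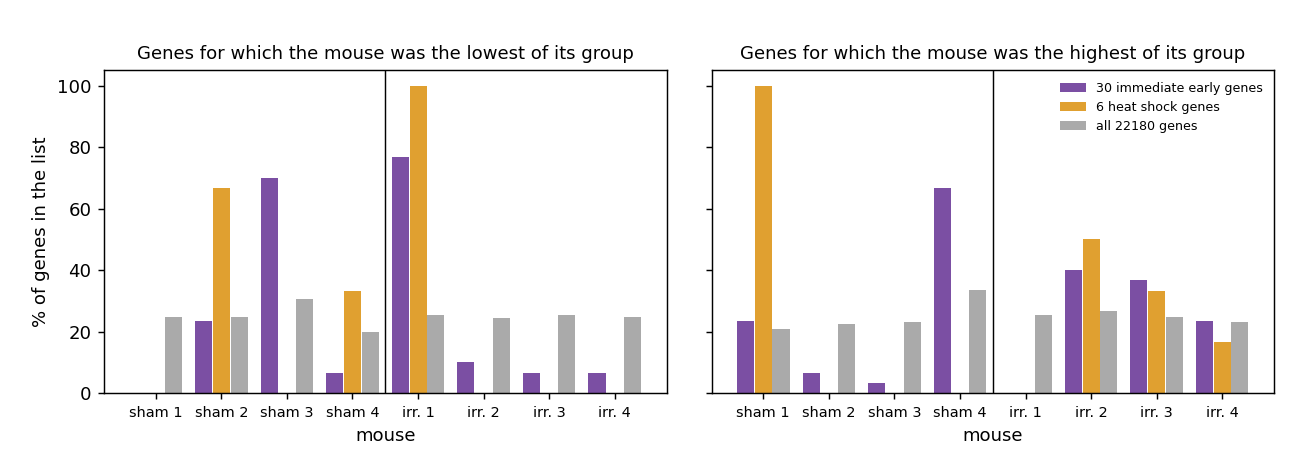
For each mouse the bars give the percentage of genes in which it was the lowest (left) or the highest (right) of its group of 4, for the 30 immediate early genes, the 6 heat shock genes and all 22180 genes. Irradiated mouse 1 was lowest in 76.7% of the immediate early genes and in 100% of the heat shock genes, against 25.5% of all genes. These shares use the probe set kept for each gene, and another Hspa8 probe set had irradiated mouse 3 lowest.

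Family means by mouse gave the same picture in part. The mean of the 3 NR4A genes was 9.87, 9.12, 9.27 and 10.34 (sham mice 1 to 4) against 8.83, 10.29, 9.79 and 9.50 (irradiated mice 1 to 4). That of the 3 EGR genes was 8.36, 7.63, 7.52 and 8.49 (sham) against 7.54, 8.33, 8.50 and 8.06 (irradiated). In both families mice 2 and 3 of the sham group and mouse 1 of the irradiated group were the lowest. The AP-1 mean moved less, from 9.12 to 9.54 in sham and from 9.07 to 9.61 in irradiated mice. The heat shock mean stood at 10.50, 10.13, 10.34 and 10.21 (sham) against 10.03, 10.44, 10.49 and 10.26 (irradiated), with its lowest value again in irradiated mouse 1. The within-group median deviation over all genes lay between -0.02 and 0.04 on every array, against -0.28 for the 36 genes in irradiated mouse 1. Each of the 36 genes averaged above the median of all probe sets, 4.70. Whether bright genes as a set were lower in that mouse was not tested.

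The genes of the sorting markers Ly6C and CD11b were well above the median of all probe sets, 4.70. The gene of CD45 was not in the marker lists. Ly6c2, which encodes the Ly6C antigen, ran from 10.77 to 12.45 over the 8 mice and Itgam, which encodes CD11b, from 10.68 to 11.28. Of 17 measured monocyte and macrophage markers 9 were higher and 8 lower in irradiated mice, and their mean ran from 10.38 to 10.72 over the 8 mice. That mean hides genes with opposite orders, such as Ly6c2 and C1qa, paired after their values were seen. Ly6c2 stood at 11.41, 11.98, 11.79 and 11.03 (sham mice 1 to 4) against 12.45, 11.88, 10.77 and 11.94 (irradiated mice 1 to 4). C1qa stood at 10.55, 9.79, 9.26 and 10.70 (sham) against 9.84, 10.17, 10.78 and 9.38 (irradiated). The mean levels of the other marker lists differed between the mice by more. T and NK cell markers, of which 25 of 27 listed were measured, had mean levels of 5.54, 7.44, 7.69 and 5.86 (sham mice 1 to 4) against 6.59, 5.52, 5.42 and 6.54 (irradiated mice 1 to 4). The list was thus high in mice 2 and 3 of the sham group, which had the lowest mean of the 30 immediate early genes (8.90 and 8.77, against 9.23 and 9.36). In the irradiated group it was high in mice 1 and 4, whose immediate early means were 8.80 and 9.21, against 9.31 and 9.35. Of the 25 genes, 23 had lower and 2 higher means in irradiated mice, where 42.2% of all genes were higher. Il7r, of this list, ran from 9.19 to 9.45 (sham) and from 7.64 to 8.96 (irradiated, limma adjusted p = 0.819). It was the 1 gene of the list without overlap of the groups, beside 3.68% of all genes. Cd3e, the defining T cell marker, ran from 5.09 in irradiated mouse 3 to 9.36 in sham mouse 3. No marker can be read as absent, since no detection calls were used.

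Neutrophil markers, all 17 measured and 14 of them lower in irradiated mice, had mean levels of 7.43, 7.24, 8.30 and 7.22 (sham) against 6.28, 7.04, 7.64 and 6.28 (irradiated). Cxcr2, the receptor of mature neutrophils, named after its values were seen, stood at 9.72, 6.95, 7.40 and 9.35 (sham) against 6.32, 9.05, 10.04 and 6.69 (irradiated). The list did not vary as one: Camp, a granule gene of immature neutrophils, also named after its values were seen, stood at 3.08, 8.02, 10.10 and 3.34 (sham) against 3.11, 3.69, 3.57 and 3.08 (irradiated). In the sham group Cxcr2 was thus low in mice 2 and 3, and Camp was high in them. All 15 fibroblast, endothelial and epithelial markers were measured, and 8 of the 15 were higher in irradiated mice. Their mean levels were 5.73, 6.45, 7.04 and 6.25 (sham) against 6.95, 6.16, 5.98 and 6.61 (irradiated). This list, like that of T and NK cells, was thus highest in sham mouse 3 and irradiated mouse 1. Those mice had the lowest immediate early means of their groups. Dendritic cell markers had 2 of 9 genes higher, B cell and plasma cell markers 3 of 12, and red cell and platelet markers 2 of 4. Of all genes 42.2% were higher. In bulk RNA, fewer cells of a type and less RNA per cell cannot be told apart.

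With the T and NK marker mean as a covariate in the limma fit, 12 of the 36 genes were higher in irradiated mice in place of 27. The median difference was then -0.04 for the 36 genes and -0.04 for all genes. Egr3 had a difference of -0.40 in that fit (limma adjusted p = 0.668), and Nr4a3 of -0.68 (limma adjusted p = 0.693). With the neutrophil mean as the covariate 29 of the 36 genes were higher. No other marker list was used as a covariate, though the fibroblast, endothelial and epithelial list was highest in the same mice as the T and NK list. The part that other cell types had in the order of the mice was not tested beyond these fits.

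Genes around the 36 were read from 9 lists of 125 genes, of which 111 were measured, and again 0 passed after adjustment (limma). At an unadjusted p under 0.05 there were 3, Egr4 as higher and Hspb8 and Trap1 as lower, beside the 6.07% of all genes. The list nearest to the members was other immediate early and feedback genes such as Btg2, Ppp1r15a and Nfkbia. It had 20 of 23 genes higher, against 42.2% of all genes, with a median difference of 0.17 and none under that p. This sign count was not repeated with mice left out. Its smallest p-values were those of Cish, a STAT5-induced cytokine signalling inhibitor (0.33 ± 0.17, SE), and Cebpb, a myeloid transcription factor (0.19 ± 0.10). The list mean was 9.01, 8.70, 8.68 and 9.10 (sham mice 1 to 4) against 8.78, 9.04, 9.21 and 9.13 (irradiated mice 1 to 4), so it was lowest in the same mice as the EGR genes.

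Kinases and factors upstream did not share that order. The MAP kinase and serum response list had 3 of 11 measured genes higher, and its mean lay between 7.93 and 8.03 in sham and between 7.81 and 8.04 in irradiated mice. Its smallest p-values were those of Map2k1, which encodes MEK1 (0.19 ± 0.12, SE), and Rps6ka3, an ERK-activated kinase (-0.14 ± 0.12). The stress kinase list had 6 of 11 higher. Its smallest p-values were those of Mapk9, which encodes JNK2 and was lower on average (-0.24 ± 0.12), and Map2k3, a p38 activator (0.18 ± 0.12). None of these lists moved between mice by as much as the EGR or NR4A means.

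Relatives of the members were mixed. Other AP-1 family genes had 5 of 10 higher, with Maf, a macrophage factor, at 8.89 ± 0.90 (sham) and 9.69 ± 0.71 (irradiated) and Batf at a difference of -0.22 ± 0.16 (SE). Other EGR, KLF and ZFP36 genes had 6 of 11 higher. Egr4 stood at 4.16 ± 0.13 and 4.40 ± 0.07 with no overlap of the groups, below 4.70, the median of all probe sets, so its signal may be near background (limma adjusted p = 0.819). Klf9 differed by 0.18 ± 0.17 (SE). Other dual specificity phosphatases had 4 of 8 higher, with Dusp4 at a difference of 0.32 ± 0.17 and Dusp3 at -0.17 ± 0.11.

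Chaperone genes outside the members were read from 3 lists, and none was tested as a list. Cytosolic chaperones and HSF1 targets had 4 of 22 higher, where 42.2% of all genes were higher, with a median difference of -0.05 against -0.03 over all genes. Ptges3, the p23 cochaperone of HSP90, differed by -0.21 ± 0.10 (SE) without overlap of the groups. Hspa14, of the same list, also had no overlap, with a difference of -0.21 ± 0.10. Of all genes 3.68% had groups without overlap. Hspb8, a small heat shock gene with a low signal, differed by -0.43 ± 0.19 (limma adjusted p = 0.819). Mitochondrial and ER chaperones had 5 of 12 higher, with Trap1, the mitochondrial HSP90, at 8.12 ± 0.11 (sham) and 7.80 ± 0.16 (irradiated) (limma adjusted p = 0.819) and Hspa9 at a difference of -0.11 ± 0.10 (SE). The list of heat shock factors and Hsbp1, which binds them, had 1 of 3 measured genes higher, and Hsf1 was not among the genes measured. Hsf2 differed by -0.33 ± 0.15 and Hsbp1 by -0.10 ± 0.12.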

How the data were processed

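The data are 8 arrays, 4 per group, 1 per mouse; groups come from the sample titles. The authors deposited log2 values, going by their range; RMA and Partek are named without versions per the submitters' processing notes, and settings are not stated there. Per the labels, 25 ng of RNA was amplified by ribo-SPIA. Of 34365 rows, 23521 carry 1 symbol, 1814 several and 9030 none; the brightest row per symbol gave 22180 genes, unfiltered. Array medians lay between 4.68 and 4.73. Precision is limited by the number of arrays.

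Groups were compared with limma 3.58.1 (R 4.3.3, lmFit, eBayes, two-sided, Benjamini-Hochberg over all genes, threshold 0.05). The code was run on simulated data with independent noise in each gene and changes larger than any difference of the members. That run does not show whether differences of the size seen here could be detected. Values by mouse are given for 13 members: the smallest p of each family, any p under 0.05 or group without overlap, and the 6 most variable. From each list around them come the 2 smallest p and any under 0.05. Alternatives were other scalings, variances, weights, filters and probe set rules, marker means as covariates, a replicate block and mice left out. Members and lists were chosen with earlier results of these data known. Figures used matplotlib 3.10.9.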

Additional observations from a re-analysis of the deposited data

Results flagged for a closer look

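In 3 of 72 groups of 4 mice, 1 mouse stood far from the other 3 in a gene; chance gives about 1 in 20. For Fosb this was irradiated mouse 1, at 8.21, where the rest of its group had 9.10 to 9.23. For Maff it was the same mouse, at 6.42, where the rest had 7.03 to 7.09. For Jun it was sham mouse 1, at 10.67, where the rest of the sham group had 10.51 to 10.53.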

How the results depend on the processing

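The count of 36 genes past the adjusted threshold was 0 in each of 19 alternatives (limma), and the lowest adjusted p was 0.668. The count at an unadjusted p under 0.05 was 1 as reported (Klf6), 3 with quantile normalization (Klf6, Dusp1 and Ier5), 2 with a trended and robust variance (Klf6 and Dusp1), 0 with sham mice 2 and 3 left out, 0 with the neutrophil mean as covariate and 0 with the mouse number as a replicate block. Same-numbered mice did not deviate together, with correlations from -0.379 to -0.19. The labels number the mice singly, and these values cannot settle whether mice were handled in pairs. Leaving out 1 mouse, that count ran from 0 (without sham mouse 3, irradiated mouse 3 or irradiated mouse 4) to 4 (Fosb, Jund, Klf6 and Ier5, without irradiated mouse 1). A count of 1 was not always Klf6: it was Egr3 with the T and NK mean as covariate, Ier5 without irradiated mouse 2 and Myc without sham mouse 2. Of 234 recomputed differences of the 13 genes given mouse by mouse, 205 kept their sign and 29 turned. With the T and NK mean as covariate these were Egr1 (-0.20), Dusp5 (-0.28), Csrnp1 (-0.15) and Gadd45b (-0.12). With the neutrophil mean they were Egr3 (0.028), Nr4a2 (0.035) and Nr4a3 (0.24). Without sham mice 2 and 3, the lowest sham mice in each of these genes, they were Egr1 (-0.39), Egr2 (-0.054), Dusp5 (-0.42), Csrnp1 (-0.28) and Gadd45b (-0.31). Leaving out 1 mouse, differences ran from -0.024 to 0.54 for Egr1, -0.28 to 0.14 for Egr3, -0.31 to 0.13 for Nr4a2, -0.46 to 0.30 for Nr4a3, -0.12 to 0.32 for Dusp5 and -0.11 to 0.31 for Csrnp1. With no turn of sign they ran from 0.07 to 0.32 for Egr2, 0.02 to 0.26 for Hspa1b, 0.04 to 0.61 for Gadd45b, 0.18 to 0.42 for Jund, 0.16 to 0.32 for Dusp1, 0.24 to 0.44 for Ier5 and 0.20 to 0.33 for Klf6. The sign turned without sham mouse 2 or irradiated mouse 3 for Egr1 and Dusp5, without sham mouse 3 for Dusp5 and Csrnp1, without irradiated mouse 3 for Csrnp1, without sham mouse 4 or irradiated mouse 1 for Egr3, Nr4a2 and Nr4a3, and without sham mouse 1 or irradiated mouse 4 for Egr3 and Nr4a3. The cause was not tested.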
